A study of Triticum aestivum with 9 samples.

Results

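The genes described here encode enzymes of redox balance and detoxification in the developing wheat grain. They are catalase (CAT1), the thioredoxin Trx-M (LOC542973), the glutathione transferase GSTZ1 (LOC543412), the lactoylglutathione lyase lgul (LOC542984), and 2 genes named after peroxide-removing enzymes, PER1 (LOC543108) and Prx1 (LOC606328). They were chosen by gene name, as every probe set that the platform's probe-to-gene table gives to these 6 genes. That made 14 probe sets, of 61115 on the array once control probe sets were set aside, and 6 of the 771 genes the table names. Whole grain of bread wheat, Triticum aestivum cultivar Jimai 20, grown in field plots, was sampled at 11 (P1), 15 (P2) and 20 (P3) days post-anthesis, that is, days after flowering. Each phase has 3 biological replicates, which makes 9 Affymetrix arrays, with no treatment or genotype difference between phases. A grain is a mixture of tissues (green pericarp, starchy endosperm, aleurone and embryo), so in these bulk samples fewer cells of a type and less RNA per cell cannot be told apart.

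Seeds form hydrogen peroxide through respiration, photorespiration and peroxisomal metabolism, and remove it by several routes. Catalase breaks hydrogen peroxide down directly in peroxisomes. Peroxidases and peroxiredoxins reduce it with electrons from phenolics, ascorbate or thiols. Thioredoxins of the m type carry electrons from ferredoxin in plastids to thiol targets, among them peroxiredoxins and enzymes of carbon metabolism. Zeta class glutathione transferases act as maleylacetoacetate isomerases in tyrosine breakdown, and lactoylglutathione lyase, also called glyoxalase I, detoxifies methylglyoxal, a by-product of glycolysis, with glutathione. PER1 is in barley the name of a seed peroxiredoxin of embryo and aleurone, but the wheat entry also carries the synonym peroxidase. The abbreviation Prx is used for both peroxidases and peroxiredoxins, so the enzyme class of PER1 and Prx1 is not settled by the tables used here.

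Values are linear probe set signals, scaled by array. Background on an array is taken as the 95th percentile of 64 reporter probe sets for sequences foreign to wheat, and lay between 89.4 and 153.3. Changes were tested by limma on log2 signals over the 36669 probe sets that passed a filter on dim signal, with Benjamini-Hochberg adjustment over all of them. That filter, a geometric mean of 44.8, lies below the background. The shares of all probe sets given below therefore include probe sets below background, while most members lay above it. Shares among probe sets above background were not computed. All 14 member probe sets passed that filter. Rose and fell are written of changes that were at least 2-fold and whose adjusted p was below 0.05, by the fitted change, and "not called" means that either criterion was missed. Arrays of 1 phase correlated at 0.947 to 0.962 and arrays of different phases at 0.871 to 0.930. Probe sets of 1 gene share their target and are named here by their order of brightness. Since wheat is hexaploid, related copies of a gene may contribute to its signal, and which copy a probe set reads is uncertain.

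The P2 arrays stood apart in their spiked-in poly-A control transcripts. The mean log2 level of those controls, relative to the mean of all arrays, was -0.27 in P1, 0.64 in P2 and -0.37 in P3, while that of the hybridization controls was -0.09, -0.01 and 0.10. The 3-prime to 5-prime log2 signal ratio of wheat control transcripts, a rough sign of RNA integrity that is used as a covariate below, averaged 3.32 ± 0.24 in P1, 2.11 ± 0.09 in P2 and 2.53 ± 0.07 in P3 (SD over 3 arrays each). The tissue marker lists, chosen with earlier results of these data known, differed in how they moved. Over 9 probe sets of embryo and aleurone genes the summed signal ran from 967 to 1513 in P1, from 29110 to 31642 in P2 and from 210911 to 255733 in P3, and all 9 rose in each comparison. Over 4 probe sets of green pericarp genes it was 21952 to 22422, 14086 to 15903 and 5748 to 6350, and over 3 of starchy endosperm genes 106459 to 118714, 118778 to 129148 and 96166 to 133323. Of the pericarp probe sets 4 fell from P1 to P3, 0 from P1 to P2 and 3 from P2 to P3. Of the starchy endosperm ones 0 rose or fell in any comparison, but not all were flat by limma. AGP-S had a log2 change of -0.36 from P1 to P3 (adjusted p = 0.00366). GBSS-I had 0.21 from P1 to P2 (adjusted p = 0.0444) and -0.39 from P2 to P3 (adjusted p = 0.00162). Alpha-gliadin, the brightest of them, had no adjusted p under 0.05. The part of tissue makeup, RNA integrity or spike-in level in the members' changes was not tested, beyond the alternative scalings and the covariate given below. The 3-prime to 5-prime ratio did not overlap between phases (3.16 to 3.59 in P1, 2.02 to 2.21 in P2 and 2.49 to 2.61 in P3). Covariate and phase therefore cannot be told apart, and a call that ended with the covariate does not tell which of them it reflects.

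Between P1 and P3, 4 of the 6 genes had a probe set that fell and 1 gene, PER1, had a probe set that rose. Of lgul only the dimmer probe set fell, and it was below background on all P2 and P3 arrays. Of PER1 only the dim probe set rose, a call that ended in 4 of 20 alternatives. The bright PER1 probe set was 1.64-fold higher and not called. Shares per gene over the array were not computed, and those below are of probe sets. Of the 14 probe sets 6 fell, of CAT1, Trx-M, Prx1 and lgul, 1 rose, of PER1, and 7 were not called. Over all probe sets tested 4.76% fell and 8.36% rose. The median log2 change was -0.82 over the members and 0.067 over all tested. All 3 P3 arrays lay below all 3 P1 arrays in 10 member probe sets and above them in 3, 1 of these below background on every array, against 21.2% and 26.5% of all probe sets. In the F test over the 3 phases 13 of the 14 had an adjusted p under 0.05 by limma, the dim CAT1 probe set described below included, against 45.2% of all probe sets.

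**Figure D1:**
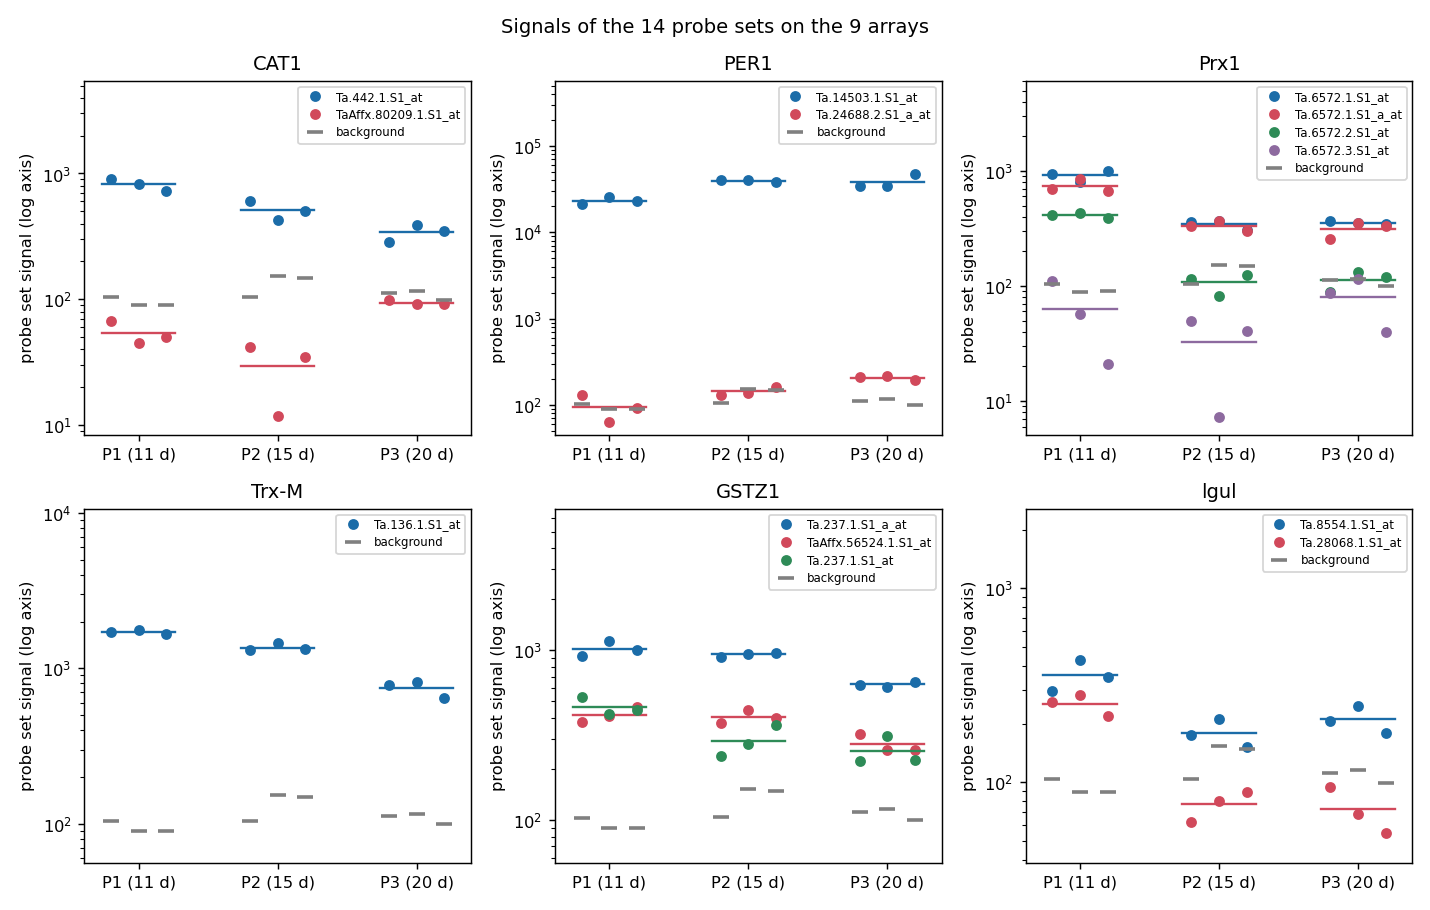
Signal of each of the 14 probe sets on each of the 9 arrays, 1 panel per gene, on log axes. Points are arrays, horizontal lines are phase means over 3 arrays, and grey dashes mark the background of each array. The bright PER1 probe set has means of 23340, 39580 and 38640, CAT1 and Trx-M have no overlap between phases, and 3 Prx1 probe sets fell between P1 and P2.

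CAT1 was measured by its brighter probe set. The signal was 905, 830 and 721 on the P1 arrays, 601, 424 and 501 on the P2 arrays and 286, 386 and 350 on the P3 arrays. The phases did not overlap in either step, and every later array was lower than every earlier one. The mean was 818 ± 92.5 at first and 341 ± 50.8 at the end, so that CAT1 fell 2.41-fold (log2 change -1.27, SE 0.16, adjusted p = 5.26e-05), a call that held in all 20 alternatives. The difference was spread over both steps, with log2 changes of -0.69 (SE 0.16, adjusted p = 0.00516) from P1 to P2 and -0.58 (SE 0.16, adjusted p = 0.0201) from P2 to P3, neither of them called. The late step less the early one was 0.12 (SE 0.28, adjusted p = 0.798). The other CAT1 probe set was below background on all 9 arrays, with means of 54.1, 29.6 and 94.4. The fit gave it a rise from P2 to P3 (log2 change 1.86, SE 0.56, adjusted p = 0.0283), but with both phases below background it has no measured fold, and the call ended in 9 of 20 alternatives.

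Trx-M has 1 probe set. Signals were 1707, 1775 and 1654 in P1, 1304, 1447 and 1327 in P2 and 776, 820 and 647 in the P3 samples, again with no overlap between phases. With means of 1712 ± 60.4 and 748 ± 90.0, Trx-M fell 2.30-fold between P1 and P3 (log2 change -1.20, SE 0.10, adjusted p = 1.15e-06), also in all 20 alternatives. Its log2 change was -0.33 (SE 0.10, adjusted p = 0.0205) from P1 to P2 and -0.87 (SE 0.10, adjusted p = 4.45e-05) from P2 to P3. The late step less the early one was -0.53 (SE 0.17, adjusted p = 0.0363). That difference passed in 7 of 19 alternatives with the same sign, missed the threshold in 11, among them the omission of any 1 P1 or P2 array (adjusted p = 0.0502 to 0.14), and changed sign under scaling to the poly-A controls (1.39).

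GSTZ1 was read by 3 probe sets, and 0 of them were called in any comparison. The brightest was at 933, 1138 and 1006 in P1, 919, 955 and 964 in P2 and 625, 609 and 656 in the P3 samples. P1 and P2 overlapped and P3 lay below both. Its log2 change from P1 to P3 was -0.70 (SE 0.10, adjusted p = 0.00011), a 95% interval of -0.91 to -0.49 that stops short of 2-fold. The second had means of 417 ± 42.4, 407 ± 37.0 and 281 ± 36.9, a log2 change of -0.57 (SE 0.15, adjusted p = 0.0112). In these 2 probe sets the log2 changes were -0.59 (SE 0.10) and -0.54 (SE 0.15) in the late step against -0.11 and -0.03 in the early one, and the difference between the steps missed the threshold (adjusted p = 0.055 and 0.189). The third probe set was at 466 ± 56.2, 294 ± 64.1 and 254 ± 50.9. Its log2 change was -0.68 (SE 0.20, adjusted p = 0.0193) from P1 to P2 and -0.20 (SE 0.20, adjusted p = 0.514) from P2 to P3. A difference in time course between GSTZ1 probe sets was not shown: the log2 ratios of the first and second over the third within an array gave exact permutation p = 0.15 and 0.136 (9 arrays, adjusted p = 0.217 for both). From P1 to P3 the third was at -0.89 (SE 0.20, adjusted p = 0.00402), and it was called in 4 of 20 alternatives: quantile normalization (-1.01), scaling by hybridization controls (-1.08), scaling by the median (-1.06) and without P3 replicate 2 (-1.04).

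PER1 was the bright member. Its first probe set was brighter than 99.7% of all probe sets, with signals of 21545, 25393 and 23093 in P1, 40081, 39893 and 38758 in P2 and 34226, 34467 and 47227 in the P3 samples. All P2 and P3 arrays lay above all P1 arrays, and P2 and P3 overlapped. The means were 23340 ± 1940, 39580 ± 716 and 38640 ± 7440, with P3 replicate 3 above the other P3 arrays. That array was also the highest of P3 for the bright alpha-gliadin marker (53727, 58135 and 86318), though not for every marker. With quantile normalization the PER1 log2 change from P1 to P3 was 0.53 (SE 0.06). As deposited, that change was 0.71 (SE 0.11, adjusted p = 0.000319), with a 95% interval of 0.47 to 0.96 that lies below 2-fold. The probe set was not called. In the early step the log2 change was 0.77 (SE 0.11, adjusted p = 0.000223), against -0.05 (SE 0.11, adjusted p = 0.794) in the late step. The steps differed by -0.82 (SE 0.20, adjusted p = 0.00814). That difference missed the threshold with arrays scaled by the hybridization controls (-0.85) or by the median (-0.74), without an intensity trend (adjusted p = 0.0516) and with the RNA integrity ratio as a covariate (-0.56), and poly-A scaling gave 1.11.

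The second PER1 probe set was dim, at 129, 63.5 and 92.6 in P1, 131, 138 and 160 in P2 and 212, 215 and 195 in the P3 samples. It was below background on 1 P1 array and 1 P2 array, and the 3 phases did not overlap. It rose 2.27-fold from P1 to P3 (log2 change 1.18, SE 0.29, adjusted p = 0.00662). The call ended under quantile normalization (0.98), scaling to the hybridization controls (0.985), the RNA integrity covariate (1.20, SE 0.83) and without P1 replicate 2 (0.92). The log2 ratio of the bright over the dim PER1 probe set was at -0.47 for P3 against P1. It did not differ between the 3 phases beyond its spread (exact permutation over the 3 phases, p = 0.3, 9 arrays).

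Prx1 fell between P1 and P2 in 3 of its 4 probe sets and was not called between P2 and P3. The brightest was at 948, 806 and 1007 in P1, 357, 368 and 308 in P2 and 370, 350 and 344 in the P3 samples. Every P1 array lay above every later array, while P2 and P3 overlapped. From P1 to P2 it fell 2.67-fold (log2 change -1.42, SE 0.13, adjusted p = 3.81e-06), and from P2 to P3 the log2 change was 0.05 (SE 0.13, adjusted p = 0.833, 95% interval -0.23 to 0.33). The second probe set fell 2.20-fold in the early step, with means of 736 ± 101 and 333 ± 31.5 (adjusted p = 0.000133). The third fell 3.88-fold, with means of 410 ± 18.8 and 107 ± 22.8 (adjusted p = 6.22e-05), although 2 of its 3 P2 arrays and 1 P3 array were below background. In these 3 probe sets the late step differed from the early one by 1.47 (SE 0.22, adjusted p = 0.000402), 1.04 (SE 0.28, adjusted p = 0.0136) and 2.05 (SE 0.43, adjusted p = 0.00351) on the log2 scale. The covariate ended all 3 of these (adjusted p = 0.759, 0.691 and 0.561), hybridization control scaling ended the first and second (0.0645 and 0.268), and the second was also lost without P2 replicate 3 (0.0589). The fourth was below background on 8 of 9 arrays, with means of 63.0, 32.4 and 80.7, and was not called.

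Between P1 and P3 the 3 brighter Prx1 probe sets fell 2.58-fold, 2.36-fold and 3.65-fold (adjusted p = 3.86e-06, 5.48e-05 and 7.4e-05). The 3 calls held in 19 of 20 alternatives each. They ended with the RNA integrity ratio as covariate, where the log2 changes were -1.06 (SE 0.36), -1.35 (SE 0.46) and -2.15 (SE 0.71) with adjusted p from 0.112 to 0.124. Without the covariate the SEs were 0.13, 0.16 and 0.25. The same covariate ended the 3 calls from P1 to P2 (adjusted p = 0.44 to 0.591). Over all alternatives the adjusted p of the brightest for P3 against P1 ran from 4e-07 to 0.124.

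Of the 2 lgul probe sets the dimmer fell and the brighter was not called. The brighter was at 295, 429 and 348 in P1, 175, 213 and 152 in P2 and 207, 249 and 179 in the P3 samples. P1 lay above both later phases, which overlapped. Its log2 change from P1 to P2 was -0.99 (SE 0.22, adjusted p = 0.00359), a 1.98-fold difference just outside the 2-fold criterion, and it was called in 5 of 20 alternatives. From P2 to P3 it was 0.24 (SE 0.22, adjusted p = 0.484). The dimmer was at 261, 284 and 220 at P1 and between 54.9 and 94.4 on the 6 later arrays, all of them below background. It fell at least 2.33-fold from P1 to P3 (adjusted p = 0.000534). From P1 to P2 the fitted change was called (adjusted p = 0.000959), but the measured difference is only bounded at 1.90-fold or more, which does not establish 2-fold. The call from P1 to P2 ended with dim signals raised to background (log2 change -0.93), and both calls ended with the covariate (adjusted p = 0.636 and 0.231). The step difference had an adjusted p of 0.0292 and 0.0429 for the brighter and the dimmer, and missed the threshold in 7 and 13 of 19 alternatives. The log2 ratio of the brighter over the dimmer lgul probe set was 1.08 higher at P3 than at P1, with the dimmer one below background in P2 and P3. The exact permutation test for any difference between the 3 phases gave p = 0.0286 (9 arrays, adjusted p = 0.0531).

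**Figure D2:**
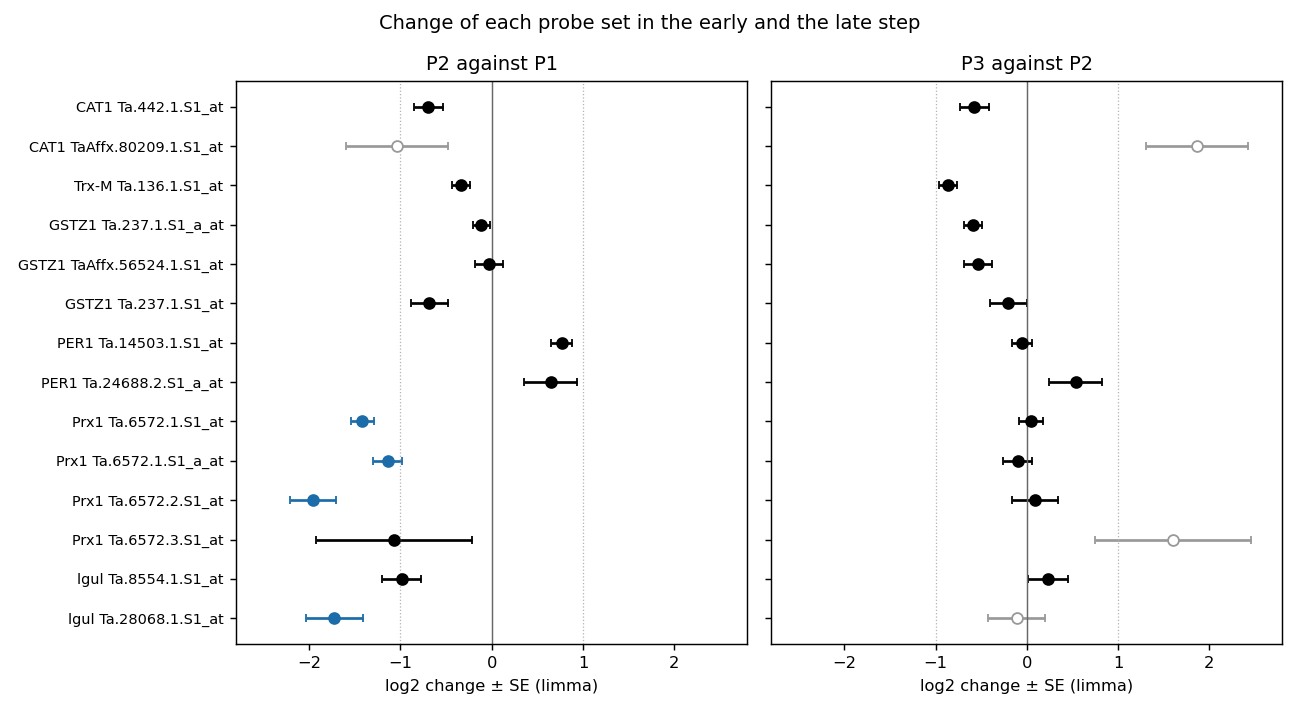
Log2 change of each of the 14 probe sets from P1 to P2 (left) and from P2 to P3 (right), with limma's standard errors, listed within each gene from the brightest to the dimmest. Blue marks probe sets that fell, black those not called, open grey those below background in both phases, and dotted lines mark 2-fold. The blue points, 3 of Prx1 and 1 of lgul, are in the left panel, and the lowest log2 change with a measured level in the right panel is that of Trx-M, at -0.87.

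The calls of the early step were 3 of Prx1 and the dimmer one of lgul, and 0 members with a measured level were called in the late one. From P1 to P2, 4 of 14 probe sets fell by the fitted change, 3 with dim signals raised to background, and 0 rose, against 5.79% and 6.89% of all probe sets. Another 5 of the 14 had an adjusted p under 0.05 by limma without reaching 2-fold, against 21.4% of all. From P2 to P3, 0 of 14 fell and 1 rose, the CAT1 probe set below background, against 2.77% and 4.46%. In that step 4 probe sets with a measured level had an adjusted p under 0.05 by limma, those of CAT1, Trx-M and 2 of GSTZ1, all lower and all under 2-fold, as were 8.3% of all probe sets. The step difference had an adjusted p under 0.05 in 8 of 14 probe sets, among them the CAT1 one below background on all arrays, against 27.7% of all, and in 3 to 7 of 14 when any 1 array was left out. The comparisons with P1 share the P1 arrays, and the 2 steps share the P2 arrays.

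All log2 changes and step differences that involve P2 depend on how the P2 arrays are scaled. As deposited, and with quantile normalization, median scaling or hybridization control scaling, the log2 change from P1 to P2 of the brightest probe set lay between -1.54 and -1.39 for Prx1 and between 0.64 and 0.77 for PER1. Scaling to the poly-A controls shifted the whole array: the median probe set was at -0.893 for P2 against P1 and at 1.081 for P3 against P2. With it 10 of 14 member probe sets fell from P1 to P2, against 38.9% of all probe sets, and 6 rose from P2 to P3, against 51.7% of all. PER1 was at -0.14 in the early step, and CAT1, Trx-M and GSTZ1 turned upward in the late step (log2 changes 0.44, 0.15 and 0.43). P3 against P1 kept its direction for the brightest probe set of every member under all 5 scalings. There CAT1 ranged from -1.47 to -1.16, Trx-M from -1.40 to -1.09, Prx1 from -1.57 to -1.26, GSTZ1 from -0.90 to -0.59, lgul from -0.95 to -0.64 and PER1 from 0.52 to 0.82.

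**Figure D3:**
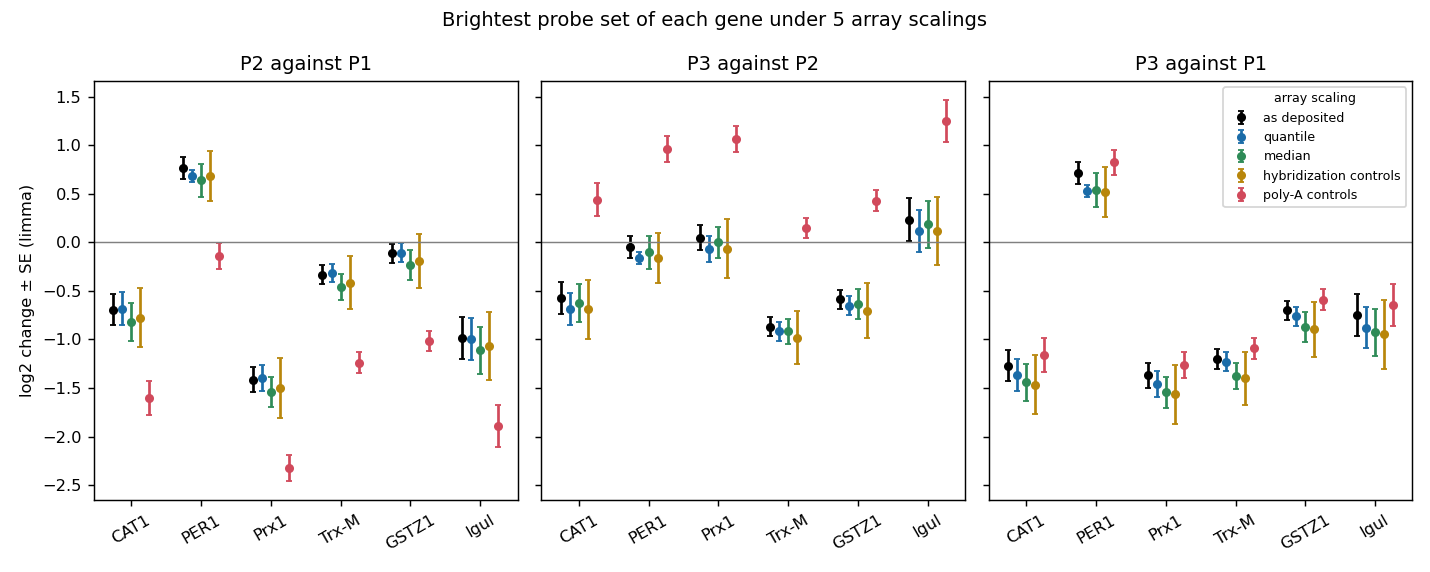
Log2 change with limma's standard error of the brightest probe set of each gene, under 5 ways of scaling the arrays, for the early step, the late step and P3 against P1. The poly-A scaling (red) lies apart from the other 4 in both steps and close to them for P3 against P1, where PER1 is above 0 and the 5 other genes below it under every scaling.

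A log2 ratio of 2 probe sets on the same array is not altered by multiplying the array by 1 factor, though quantile normalization does alter it. An array effect that differs between bright and dim probe sets does not cancel in it, and PER1 is far brighter than the other genes. Relative to its mean at P1, the log2 ratio of PER1 over Trx-M averaged 1.10 ± 0.08 in P2 and 1.92 ± 0.44 in P3 (SD, n = 3 each). Its exact permutation p was 0.00357, the smallest that 1680 arrangements of 9 arrays allow, and 0.0232 after adjustment over 13 ratios. PER1 over GSTZ1 stood at 0.88 ± 0.06 and 1.41 ± 0.22 (exact permutation p = 0.00357, n = 3 per phase, adjusted p = 0.0232). PER1 over CAT1 stood at 1.46 ± 0.25 and 1.98 ± 0.31 (exact permutation p = 0.00714, n = 3 per phase, adjusted p = 0.031). All 3 of these ratios were higher on each of the 6 later arrays than on any P1 array.

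PER1 over Prx1 stood at 2.18 ± 0.11 in P2 and 2.08 ± 0.31 in P3. PER1 over lgul stood at 1.75 ± 0.23 and 1.47 ± 0.48. Both were above every P1 value on all 6 later arrays, yet the exact permutation test over the 3 phases gave p = 0.0214 and 0.0179 and adjusted p = 0.0531 for each, which missed the threshold. The ratios were chosen after the signals had been seen. The 3 that passed did so in all 12 alternatives run for them.

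**Figure D4:**
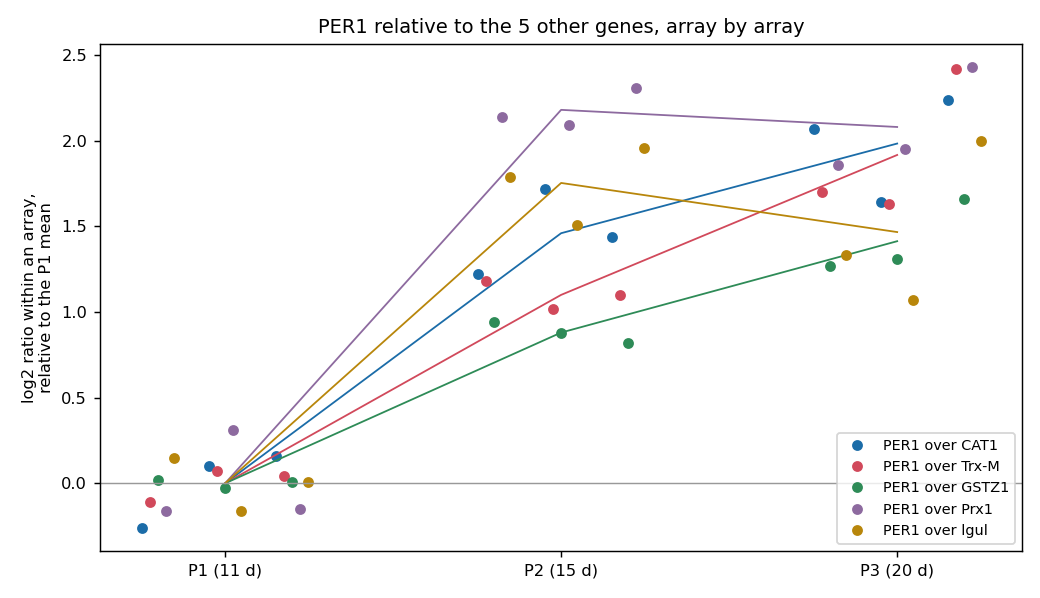
Log2 ratio of the bright PER1 probe set over the brightest probe set of each other gene, on each of the 9 arrays, relative to the mean of the P1 arrays. Points are arrays and lines join phase means. The P1 points lie within -0.26 to 0.31 and all later points lie between 0.82 and 2.43.

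No other gene of these pathways was found by name, in a search that could miss genes with short names. Symbols and synonyms were searched for catalases, dismutases, peroxidases, thioredoxins, glutaredoxins, glutathione enzymes, glyoxalases, cytochromes P450 and oxidases. That found 10 of the 14 member probe sets and 0 of another gene, in an annotation where 102 of 771 genes have an informative name. It missed the probe sets of CAT1 and lgul, whose short names were not among the terms searched. Among neighbours in function, picked by name after that search, phytochelatin synthase PCS1 (LOC542834), which makes metal-binding peptides from glutathione, was at 406 ± 114, 420 ± 138 and 531 ± 19.5 and was not called. HGGT (LOC543094), which draws homogentisate from tyrosine breakdown into the antioxidant tocotrienols, was at 2774 ± 105, 3781 ± 410 and 2522 ± 193. Its log2 changes of 0.44 (adjusted p = 0.00197) and -0.58 (adjusted p = 0.000408) were not called, and both changed sign with poly-A scaling (-0.46 and 0.43).

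Chloroplast fructose bisphosphatase (FBP) and phosphoribulokinase (PRK, LOC543283) are Calvin cycle enzymes that thioredoxins activate. FBP was at 691 ± 60.1, 326 ± 9.56 and 297 ± 45.2 and fell 2.34-fold from P1 to P3 (adjusted p = 2.65e-05), on its 1 probe set above background. PRK was at 3758 ± 150, 2689 ± 198 and 1422 ± 11.6 and fell 2.64-fold (adjusted p = 1.54e-08). The log2 changes of PRK were -0.49 in the early step and -0.92 in the late one, and those of FBP -1.08 and -0.15. Whether these genes differ in timing was not tested. PRK is also 1 of the green pericarp markers.

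Time courses were also compared by Pearson's r of log2 signals over the 9 arrays, which fall into 3 phases and share their scaling. Among the brightest probe sets of the members, Trx-M and GSTZ1 were the most alike (r = 0.943), followed by CAT1 and Trx-M (0.877) and by Prx1 and lgul (0.869), and PER1 ran against Prx1 (-0.938) and lgul (-0.842). Among 1018 named probe sets of other genes, the 2 nearest to Prx1 were those of the translation initiation factor gene Eif4B (LOC543417, r = 0.984), with means of 11480, 6254 and 6422, and LOC100037556 (r = 0.983), at 14290, 1033 and 793. The nearest to PER1 were LOC100037598 (r = 0.983), at 20050, 26060 and 26260, and LOC543073 (r = 0.982). LOC543137 (r = 0.986) and LOC100037533 (r = 0.984) were nearest to Trx-M, LOC780574 (0.979) and LOC542986 (0.968) to CAT1, LOC780637 (0.981) and LOC542844 (0.979) to GSTZ1, and LOC543175 (0.966) and LOC543033 (0.932) to lgul. The tables used here give these loci no other name.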

How the data were processed

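Per the submitters' processing notes the authors used MAS5. Its version was not given in the sources used. The deposited values are linear probe set intensity values for 61290 probe sets, with a 2% trimmed mean of 500.1 on each array, and the 3 arrays per phase limit precision. Groups and replicate numbers come from the sample titles. The 175 control probe sets were left out, which left 61115, and of these 1273 have 1 gene symbol, 0 several and 59842 none in the platform annotation. Of its 771 genes 770 were found by gene identifier in the RefSeq gene table of IWGSC CS RefSeq v2.1, used for names only. In R 4.3.3, limma 3.58.1 was fitted to log2 signals with a pseudocount of 0, after the dimmest 40% of probe sets by mean log2 signal (geometric mean up to 44.8) were dropped. One model of all 9 arrays held phase as the factor, with an intensity trend and 6 residual degrees of freedom. The fit was run on simulated data with independent noise and changes added to some probe sets in P3. Those data held no array effect, spike-in shift, RNA integrity difference or background floor, so the run does not bear on these. Where the 3 arrays of a phase all lay below background, the fold is a lower bound taken against that background. Ratios within arrays were tested for any difference between the 3 phases, by exact permutation of the phases over 9 arrays. The labels give plots as replicates but do not say that equal numbers mean 1 plot, and p-values measure the spread between these samples. All probe sets of the 6 genes are named. The genes most alike are the 2 with the highest r to the brightest probe set of each. The members and lists were chosen with earlier results of these data known. Alternatives covered scaling, normalization, pseudocount, filter, background, variance trend, arrays in the fit, an RNA integrity covariate, a replicate block and leaving out each array. Sequences are not used here.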

Additional observations from a re-analysis of the deposited data

How the results depend on the processing

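Of 840 log2 changes of member probe sets under the alternatives, 765 kept direction and call, 35 changed sign, 19 became called and 21 lost their call. Most of those kept were changes not called in the main fit, where 7, 10 and 13 of the 14 probe sets were not called for P3 against P1, P2 against P1 and P3 against P2. Leaving out an array of the phase not compared also cannot move a log2 change. Of 266 step differences these counts were 196, 11, 5 and 54. The cause was not tested where a result changed. Between P1 and P3, 0 member probe sets rose under quantile normalization, with hybridization control scaling and with the RNA integrity covariate, and 2 fell with that covariate. Over all probe sets 6.93%, 5.94% and 3.55% rose under these, in that order, and 2.29% fell with the covariate. From P1 to P2, 10 fell with poly-A scaling, where 38.9% of all probe sets did, and 0 with the covariate, where 0.425% did. From P2 to P3, 6 rose with poly-A scaling, where 51.7% of all did. With hybridization control scaling, no filter, dim signals raised to background, the compared phases alone or the covariate 0 rose. Over all probe sets 2.85%, 2.68%, 2.83%, 4.3% and 2.61% rose under these, in that order. The F test passed in 6 with the covariate. The step difference passed in 5 with median scaling, 1 with hybridization control scaling, 14 with poly-A scaling, 5 with no filter and 0 with the covariate. Poly-A scaling put the median probe set at -0.893 from P1 to P2 and at 1.081 from P2 to P3. For the F test and the step difference, shares over all probe sets were computed for the main fit only. Leaving out 1 array gave 0 to 1 risen and 6 to 7 fallen for P3 against P1, 0 risen and 4 to 5 fallen for P2 against P1, 0 to 1 risen and 0 fallen for P3 against P2, 11 to 13 in the F test and 3 to 7 in the step difference. Over all probe sets 7.46% to 8.67% rose and 4.45% to 4.97% fell for P3 against P1. These shares were 6.3% to 7.31% and 5.01% to 6.11% for P2 against P1, and 3.56% to 4.81% and 2.45% to 2.82% for P3 against P2.

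Signs changed as follows, on the log2 scale. Quantile normalization gave -0.069 for the first Prx1 probe set from P2 to P3 and -0.006 for the CAT1 step difference, and median scaling -0.001 for that Prx1 change. Hybridization control scaling gave -0.067 and -0.024 for the first and the third Prx1 probe sets from P2 to P3. PCS1 from P1 to P2 was -0.095 with median, -0.052 with hybridization control and -0.876 with poly-A scaling, and -0.836 with the covariate. Poly-A scaling gave, from P1 to P2, -0.141 and -0.258 for PER1 and -0.464 for HGGT. From P2 to P3 it gave 0.441 for the brighter CAT1 probe set, 0.148 for Trx-M and 0.428, 0.477 and 0.812 for GSTZ1. In the same step it gave 0.964 for the bright PER1 probe set, 0.916 for the second Prx1 one and 0.906 for the dimmer lgul one. PRK was at 0.099 there, HGGT at 0.434 and FBP at 0.869. The step differences with poly-A scaling were 1.387 for Trx-M, 1.445 and 1.417 for the first and second GSTZ1 probe sets, and 1.105 and 1.809 for PER1. Raising dim signals gave the dim CAT1 probe set 0.503, -0.29 and a step difference of -0.793, the fourth Prx1 one 0.469, -0.29 and -0.759, and the third Prx1 one -0.186 from P2 to P3. The covariate gave, for P3 against P1, -0.417 for the dim CAT1 probe set, -3.487 for the fourth Prx1 one and -0.14 for PCS1. It gave 0.653 for the second GSTZ1 probe set from P1 to P2. From P2 to P3 it gave 0.014 for the bright PER1 probe set, -0.117 for the first Prx1 one, 0.039 for the dimmer lgul one and 0.064 for FBP. Leaving out 1 array gave ranges that cross 0 for results that lie near it: -0.11 to 1.092 for the fourth Prx1 probe set (P3 against P1), -0.197 to 0.3 for PCS1 and -0.103 to 0.044 for the second GSTZ1 one (P2 against P1). From P2 to P3 they were -0.204 to 0.028 for the bright PER1 probe set and -0.315 to 0.075 for the dimmer lgul one. For the first, second and next Prx1 probe sets they were -0.03 to 0.098, -0.185 to 0.034 and -0.094 to 0.255 in that step. The ranges were -0.13 to 0.375 for the step difference of the brighter CAT1 probe set and -0.361 to 0.148 for that of the dim PER1 one. For the ratio of the first over the second Prx1 probe set the range was -0.33 to 0.01.

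Same-numbered arrays of different phases had deviations correlated at -0.045 to 0.032, and differently numbered ones at -0.042 to 0.059. No shared effect of the number was seen, but whether equal numbers mean 1 plot is not known. With a replicate block 1 member probe set rose and 6 fell for P3 against P1, 0 and 4 for P2 against P1, and 1 and 0 for P3 against P2. Over all probe sets the shares were 8.3% and 4.72%, 6.78% and 5.69%, and 4.34% and 2.74%. The F test passed in 12 and the step difference in 6. With 3 arrays per phase and signals near background, the dim CAT1 probe set and the fourth Prx1 one support no statement on level.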
